A study of Mus musculus with 4 samples.

Results

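The genes described here encode conjugation enzymes and carboxylesterases, chosen by symbol: UDP-glucuronosyltransferases (Ugt1, Ugt2, Ugt3), cytosolic, mitochondrial and microsomal glutathione S-transferases (Gsta, Gstm, Gstp, Gstt, Gsto, Gstk, Mgst), sulfotransferases (Sult) and carboxylesterases (Ces1, Ces2, Ces3, Ces5), with pseudogenes left out. There were 69 such genes among 22180 genes with a probe set naming no other gene, and each had 1 probe set. RNA came from C57BL/6 mice aged 3 months and was measured on 4 Affymetrix whole-transcript arrays, as RMA-normalized log2 signals. The groups, with 1 array each, were colon tumour of CDX2; Dmt1F/F/ApcF/+ mice (F/F tumour), colon tumour of CDX2; Dmt1+/+/ApcF/+ mice (+/+ tumour), normal colon of the F/F genotype (F/F normal) and normal colon of the +/+ genotype (+/+ normal). The mice of every group thus shared ApcF/+ and the label CDX2, which the labels leave unexplained, so the normal colon is not from mice without the Apc allele. Dmt1, symbol Slc11a2, encodes an iron importer, and F conventionally denotes an allele that Cre recombinase can delete. The design text counts 4 F/F and 7 +/+ animals, and the labels do not say whether an array holds pooled RNA.

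Conjugation makes foreign compounds, bile pigments, steroids and other lipophilic molecules soluble by attaching glucuronic acid, glutathione or sulfate. Carboxylesterases hydrolyse esters and amides, among them drugs, retinyl esters and acylglycerols, and often act ahead of conjugation. In the gut these enzymes sit mainly in the mature absorptive epithelium, where they meet dietary and microbial compounds. Near-identical members of a family can hybridise to each other's probes, so values for neighbours within Ces1, Ces2, Gstm, Gstp, Sult2a and Ugt2b are uncertain as to the member.

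The floor used here was the median level of all genes, log2 4.67, and 35 of the 69 members reached it on at least 1 array, as did 12060 genes in all. The 34 members below it were 16 of 21 sulfotransferases, 7 of 10 UDP-glucuronosyltransferases, 8 of 17 carboxylesterases and 3 of 18 other glutathione S-transferases than the microsomal ones, of which all 3 reached it. Among the sulfotransferases below the floor were Sult2a1 to Sult2a8 and the estrogen sulfotransferase Sult1e1, and no value of these 16 exceeded 3.69 on any array. Ces3a, Ces3b, Ces5a, Ugt3a1 and Ugt3a2 were also below it on every array. Of the 35 members kept, 5 (Ces1d, Ces1e, Ces1g, Ces2b and Ugt2b5) were below the floor on both tumour arrays and so passed the filter only through the tissue in which they were high. Their lower level in tumour was thus part of their selection, and no test of Ces1d, Ces1e, Ces2b or Ugt2b5 is given. Counts are also given over the 31 members and 11090 genes whose mean over the 4 arrays reached the floor, a filter that does not favour a direction and was added after the data were seen.

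The arrays carried their labels as follows. Slc11a2 was at 6.19 in F/F tumour and 6.64 in +/+ tumour, and at 6.13 in F/F normal and 6.51 in +/+ normal, lower in F/F in both tissues; where its probe set lies relative to the deleted part was not examined. Array medians over all probe sets ranged between 4.27 and 4.34. All 10 colon epithelial markers reached the floor, and 5 of 8 liver markers (Apoa2, Apoh, Serpina1a, Ahsg, Fgb) were below it on every array. The other liver markers, Alb, Ttr and Cyp2e1, reached it. Alb was at 6.19 in F/F tumour and 5.03 in F/F normal, and at 6.88 in +/+ tumour and 5.55 in +/+ normal. Ttr lay between 6.12 and 6.85, and Cyp2e1 was above the floor in F/F normal alone, at 6.03. The labels give no position along the colon for any piece. Of 8 distal position markers 6 were kept, with a mean log2 signal of 6.70 in F/F tumour and 4.51 in F/F normal, and of 6.72 in +/+ tumour and 5.72 in +/+ normal. Of 10 small intestine or proximal markers 7 were kept, with means of 5.46 in F/F tumour and 9.05 in F/F normal, and of 4.53 in +/+ tumour and 7.84 in +/+ normal. Position and tumour cannot be told apart in what follows.

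**Figure D1:**
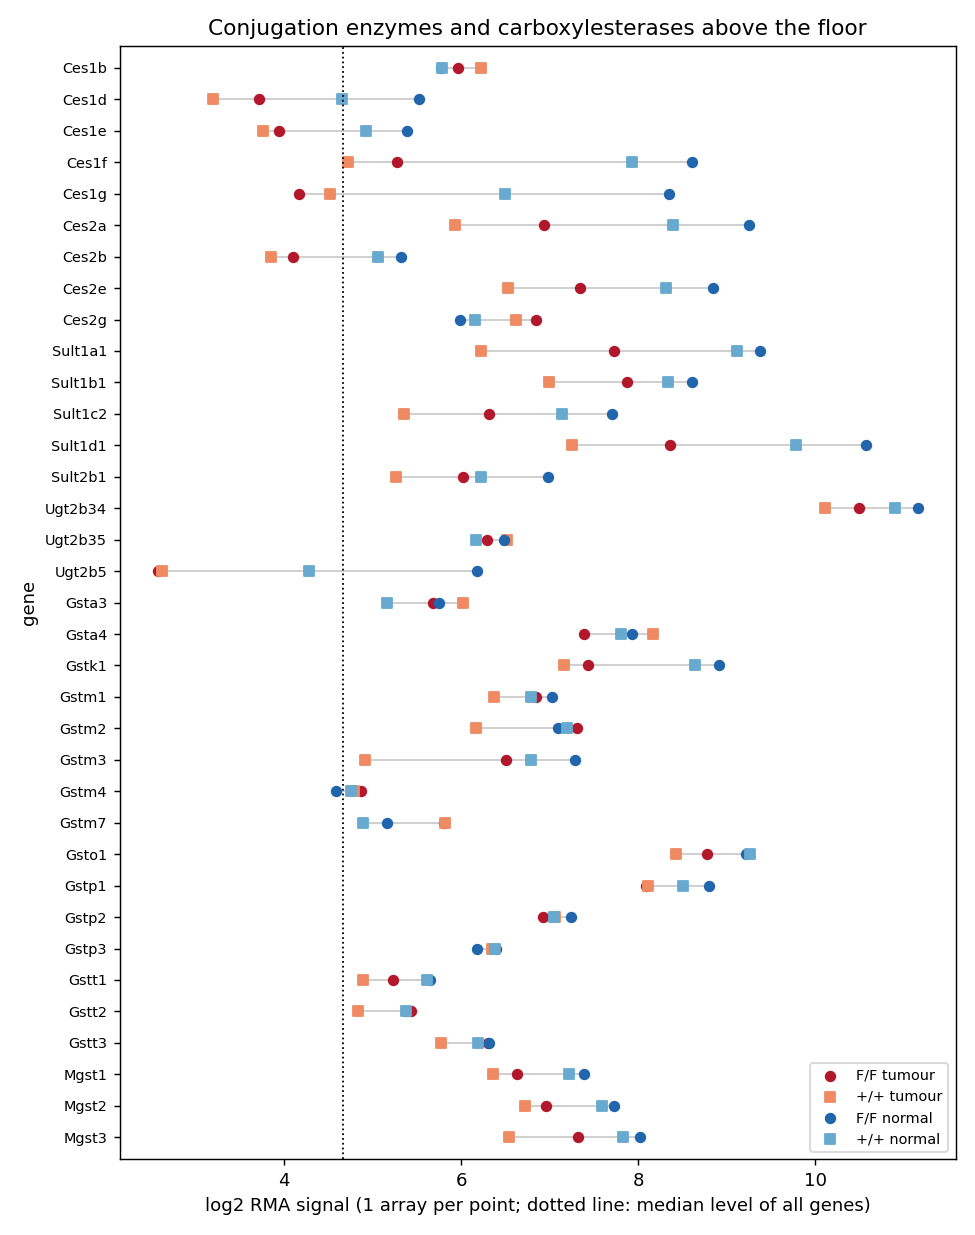
Log2 RMA signal (horizontal axis) of the 35 members that reached the floor (vertical axis, by family), with 1 point per array for F/F tumour, +/+ tumour, F/F normal and +/+ normal and a dotted line at the floor of 4.67. For the sulfotransferases and for most carboxylesterases both tumour points lie left of both normal points, while Ces1b, Ces2g, Gstm4 and Gstm7 have both tumour points to the right.

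Tumour was set against normal colon in each genotype to ask how these enzymes differ in the tumours. The lowest fitted differences were those of Ces1f, Ces1g, Ugt2b5, Ces2a, Sult1d1 and Sult1a1, of which Ces1g and Ugt2b5 were kept through normal colon alone. The membrane-bound glutathione S-transferases were lower by less. Members of the Gstp and Gstt classes, and Gsta3 and Gsta4, showed small or mixed differences. The brightest probe set shared by other alpha class genes, which names no member, differed by -1.36 in F/F and -1.27 in +/+. In an additive model over the 4 arrays (limma, tissue and genotype terms, adjusted over 12060 genes), 20 of the 35 kept members fell in tumour, where 8.23% of all genes fell, and 1 rose, where 11.0% of all genes rose. The 20 include the 5 kept through normal colon alone, and without these 15 of 30 fell. With the filter on mean level 15 of 31 fell, where 8.33% of genes fell, and 1 rose, where 10.8% did. Over all genes this was 992 that fell and 1331 that rose, and after cyclic loess 1229 and 1063. The model has 1 residual degree of freedom. Its error comes from how the tumour minus normal difference changes between the genotypes, so it does not measure the spread between animals. In whole tissue, fewer cells of a type and less RNA per cell cannot be told apart.

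By the difference of 2 arrays, 12 members were lower by 2-fold or more (a log2 difference of -1 or below) in F/F tumour than in F/F normal, against 3.81% of all genes, and 16 in +/+ tumour than in +/+ normal, against 5.31%. None was higher by 2-fold or more in either genotype, against 5.98% of all genes in F/F and 6.56% in +/+. The same 12 were lower by 2-fold or more in both genotypes, as were 2.58% of all genes: Ces1d, Ces1e, Ces1f, Ces1g, Ces2a, Ces2b, Ces2e, Gstk1, Sult1a1, Sult1c2, Sult1d1 and Ugt2b5. With the filter on mean level, which leaves out Ces1d, Ces1e, Ces2b and Ugt2b5, 8 of 31 were lower by 2-fold or more in both, where 2.52% of genes were. At 2-fold or more, 0 members were higher in both genotypes, against 3.64% of all genes. At any size, 24 members were lower in both genotypes, against 34.1% of all genes, and 4 were higher in both, against 44.1%. The median difference over the kept members was -0.71 in F/F and -0.87 in +/+, beside 0.04 and 0.08 over all genes. With the filter on mean level it was -0.66 in F/F and -0.84 in +/+.

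**Figure D2:**
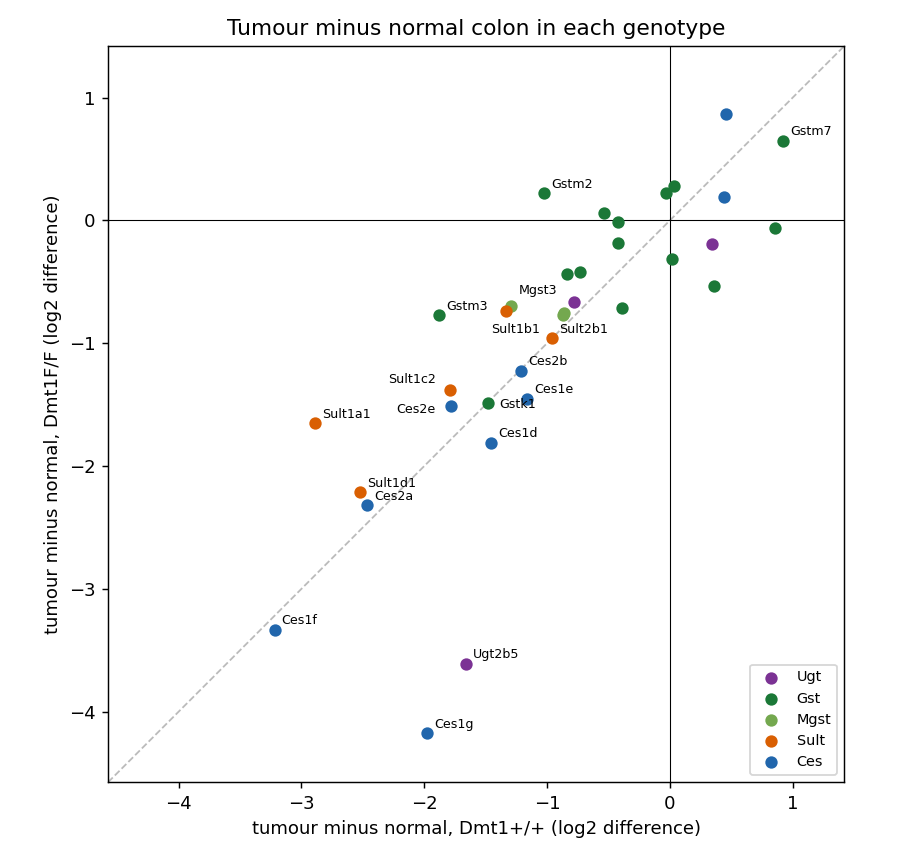
Tumour minus normal log2 difference of each kept member in Dmt1+/+ (horizontal axis) and Dmt1F/F (vertical axis), coloured by family, with a dashed line of equality; each point rests on 4 arrays, 1 per group. Ces1f, Ces2a and Sult1d1 lie near the line at differences below -2, Ces1g and Ugt2b5 lie below it and Sult1a1 and Gstm3 above it.

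Of the 6 carboxylesterases whose mean level reached the floor, 4 fell (Ces1f, Ces1g, Ces2a and Ces2e) and 2 were not called. With that filter 8.33% of genes fell. Ces1f, a hydrolase of lipid droplets in mouse liver, was at 5.27 in F/F tumour and 8.60 in F/F normal, and at 4.72 in +/+ tumour and 7.94 in +/+ normal. Both tumour arrays were thus more than 3 log2 units below the normal array of their genotype, 10.1-fold in F/F and 9.31-fold in +/+, and the gene fell by 3.28 in the model (SE 0.12, adjusted p = 0.00349). Ces1g, a carboxylesterase of lipid metabolism in mouse liver and intestine, was at 4.17 in F/F tumour and 8.35 in F/F normal, and at 4.52 in +/+ tumour and 6.50 in +/+ normal. The tumour arrays were alike and the normal arrays were not, so the difference was -4.17 in F/F and -1.98 in +/+. In the model Ces1g fell by 3.08 with an SE of 0.54 (adjusted p = 0.0305, and 0.0353 with the filter on mean level), with both tumour arrays below the floor.

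Ces1d, a triacylglycerol hydrolase in mouse liver and fat, was at 3.71 in F/F tumour and 5.52 in F/F normal, and at 3.19 in +/+ tumour and 4.65 in +/+ normal. Ces1e was at 3.94 in F/F tumour and 5.39 in F/F normal, and at 3.76 in +/+ tumour and 4.93 in +/+ normal. For both genes every tumour value was below the floor, which Ces1d reached on F/F normal alone. Ces1b did not pass, with a fitted difference of 0.32 (SE 0.14, adjusted p = 0.184). Along chromosome 8 the Ces1 genes lower by 2-fold or more in both genotypes, Ces1d, Ces1e, Ces1f and Ces1g, follow each other. They are flanked by Ces1a, Ces1b and Ces1c on one side and Ces1h and Ces5a on the other, whose differences ran between -0.20 and 0.57. Of these flanking genes only Ces1b reached the floor. The small differences of Ces1a, Ces1c, Ces1h and Ces5a rest on signals below it and do not show that these genes were unchanged.

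Ces2 enzymes are carboxylesterases known for intestinal and hepatic hydrolysis of ester drugs. Ces2a was at 6.93 in F/F tumour and 9.25 in F/F normal, and at 5.93 in +/+ tumour and 8.40 in +/+ normal, 4.99-fold and 5.53-fold lower in tumour, and fell by 2.39 (SE 0.12, adjusted p = 0.00403). Ces2e was at 7.34 in F/F tumour and 8.85 in F/F normal, and at 6.53 in +/+ tumour and 8.32 in +/+ normal, and fell by 1.65 (SE 0.13, adjusted p = 0.00891). Ces2b was at 4.10 in F/F tumour and 5.32 in F/F normal, and at 3.85 in +/+ tumour and 5.06 in +/+ normal, with both tumour arrays below the floor. For Ces2a, Ces2b and Ces2e the tumour array was below the normal array in each genotype, as for 34.1% of all genes. For Ces2b this was part of its selection. Ces2g of the same cluster went the other way, at 6.85 in F/F tumour and 5.98 in F/F normal, and at 6.62 in +/+ tumour and 6.16 in +/+ normal, and did not pass (0.66, SE 0.16, adjusted p = 0.0529).

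**Figure D3:**
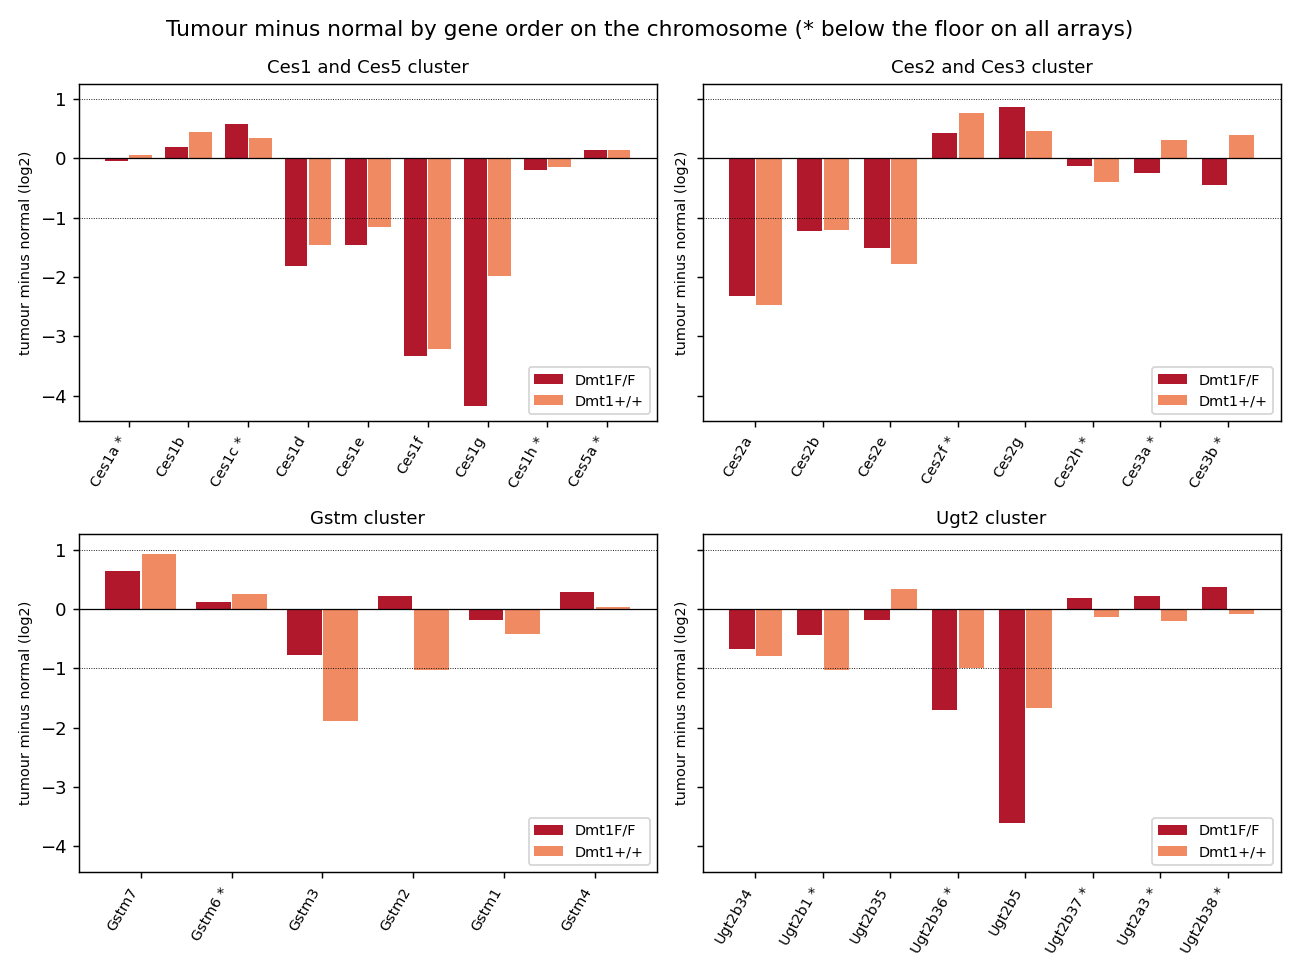
Tumour minus normal log2 difference (vertical axis) of members of 4 gene clusters in their order along the chromosome (horizontal axis), with bars for Dmt1F/F and Dmt1+/+, dotted lines at 1 and -1, and an asterisk on genes below the floor on all arrays. Bars below -1 stand side by side in Ces1d to Ces1g, and in the Ugt2 cluster the bars of Ugt2b5 are the longest.

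Of the 5 sulfotransferases kept, all 5 fell, where 8.23% of all genes fell. Sult1d1, which sulfates catecholamines in the mouse, was at 8.36 in F/F tumour and 10.57 in F/F normal, and at 7.26 in +/+ tumour and 9.78 in +/+ normal, and fell by 2.37 (SE 0.13, adjusted p = 0.00468). Sult1a1, the main phenol sulfotransferase, was at 7.73 in F/F tumour and 9.37 in F/F normal, and at 6.22 in +/+ tumour and 9.12 in +/+ normal. The normal arrays of Sult1a1 lay 0.26 apart and the tumour arrays 1.50 apart, and it was 3.14-fold lower in F/F tumour and 7.43-fold lower in +/+ tumour than in normal colon of the same genotype. Sult1c2 was at 6.32 in F/F tumour and 7.70 in F/F normal, and at 5.35 in +/+ tumour and 7.14 in +/+ normal. Sult1b1, which sulfates phenols and thyroid hormones, was at 7.87 in F/F tumour and 8.61 in F/F normal, and at 6.99 in +/+ tumour and 8.33 in +/+ normal. For each of these genes the tumour array was below the normal array in both genotypes, as for 34.1% of all genes. Sult2b1, which sulfates cholesterol and pregnenolone, differed by -0.96 in F/F and by -0.96 in +/+, and fell with an adjusted p of 0.0195.

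Promoter sequence of RefSeq, assembly GRCm38.p6, is shown for the sulfotransferase with the lowest adjusted p and for 3 Ces2 neighbours, of which Ces2a and Ces2e fell and Ces2g did not. Each run is the 250 bases before the annotated start, 5′ to 3′ on the gene's strand, and 58 of the 69 members had an entry, in 70 windows. Capitals mark the HNF1 motif, named for a hepatocyte factor, in Sult1d1 (chr5:87569007-87569256 on the - strand), and GGNCAAAG, an HNF4-type motif, in Ces2a (chr8:104733753-104734002 on the + strand), Ces2e (chr8:104926010-104926259 on the + strand) and Ces2g (chr8:104961468-104961717 on the + strand), searched on both strands.
Sult1d1: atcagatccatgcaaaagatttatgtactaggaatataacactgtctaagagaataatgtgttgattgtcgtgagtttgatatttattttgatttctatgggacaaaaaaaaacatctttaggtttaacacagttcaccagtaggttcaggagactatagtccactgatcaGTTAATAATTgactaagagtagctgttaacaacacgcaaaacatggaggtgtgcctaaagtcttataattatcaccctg
Ces2a: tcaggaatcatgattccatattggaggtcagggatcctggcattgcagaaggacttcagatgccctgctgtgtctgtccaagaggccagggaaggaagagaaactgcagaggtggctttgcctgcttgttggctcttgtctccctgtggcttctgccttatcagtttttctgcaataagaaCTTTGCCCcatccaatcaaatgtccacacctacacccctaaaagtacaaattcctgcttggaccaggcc
Ces2e: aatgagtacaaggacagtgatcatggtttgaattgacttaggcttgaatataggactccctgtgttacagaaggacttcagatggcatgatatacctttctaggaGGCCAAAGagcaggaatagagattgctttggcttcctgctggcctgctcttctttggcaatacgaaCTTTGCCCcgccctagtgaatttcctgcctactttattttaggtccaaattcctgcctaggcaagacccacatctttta
Ces2g: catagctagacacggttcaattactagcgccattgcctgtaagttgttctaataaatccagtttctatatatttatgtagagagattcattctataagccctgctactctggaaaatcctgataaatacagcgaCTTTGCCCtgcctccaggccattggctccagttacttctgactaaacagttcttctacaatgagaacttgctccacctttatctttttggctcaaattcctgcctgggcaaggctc
The Ces2a, Ces2e and Ces2g windows share CTTTGCCC, the reverse-strand form of the HNF4-type motif, and the Ces2e window holds a second match on the gene's strand.

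These motifs were chosen with the values known, and a match describes letters and not binding. The HNF1 motif was in 0.371% of all 32851 windows and in those of 6 members, of which only Sult1d1 reached the floor (the others were Sult2a3, Sult2a4, Sult2a5, Sult2a6 and Ces5a). GGNCAAAG was in 4.89% of all windows and in those of Ces2a, Ces2e, Ces2f, Ces2g, Gstk1 and Gsto1; it overlapped no other motif searched in the windows shown. TGACNNNGC, the antioxidant response element, was in 10.2% of all windows and in those of Gsta3, Gstm7 and Mgst1. TTTAT, a CDX-type core, was in 37.3% of all windows and in 38 of the 70 member windows. CAAAGTCCA (HNF4) and CTTTGATC (TCF) were in 0.384% and 0.801% of all windows and in 0 member windows.

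Of the 10 UDP-glucuronosyltransferases only Ugt2b34, Ugt2b35 and Ugt2b5 were kept. Ugt2b5 was at 2.57 in F/F tumour and 6.18 in F/F normal, and at 2.62 in +/+ tumour and 4.28 in +/+ normal. F/F normal was thus the only array above the floor, with differences of -3.61 in F/F and -1.66 in +/+. Ugt2b34 was at 10.49 in F/F tumour and 11.16 in F/F normal, and at 10.12 in +/+ tumour and 10.90 in +/+ normal, and fell by 0.72 (SE 0.10, adjusted p = 0.0208). Ugt2b35 did not pass, with differences of -0.19 in F/F and 0.35 in +/+. The Ugt1 genes have no probe set of their own in the annotation and are not among the members.

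All 3 microsomal glutathione S-transferases fell, where 8.23% of all genes fell. Mgst1, a membrane enzyme with glutathione peroxidase activity, fell by 0.81 and Mgst2, which can make leukotriene C4, by 0.82 (SE 0.12 each, adjusted p = 0.0238 and 0.0226). Mgst3 was at 7.32 in F/F tumour and 8.02 in F/F normal, and at 6.54 in +/+ tumour and 7.83 in +/+ normal. It was lower in both genotypes, with +/+ tumour the lowest array.

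Of the 15 other glutathione S-transferases kept, 3 fell, 1 rose and 11 were not called, where 8.23% of all genes fell and 11.0% rose. With the filter on mean level 2 of 15 fell, and without a filter on level 1 of 18. Gstk1, the kappa class enzyme of mitochondria and peroxisomes, was at 7.43 in F/F tumour and 8.91 in F/F normal, and at 7.17 in +/+ tumour and 8.65 in +/+ normal. Its difference was -1.48 in both genotypes, and it fell with an SE of 0.11 and an adjusted p of 0.00812. Gsto1, an omega class thioltransferase, fell by 0.64 (SE 0.14, adjusted p = 0.0471). Gstm7 rose by 0.78 (SE 0.16, adjusted p = 0.0405), and was not called after quantile normalization or cyclic loess. Gstp1, the pi class enzyme often measured in tumours, did not pass (-0.55, SE 0.13, adjusted p = 0.0551), and Gstp2, Gstp3, Gsta3, Gsta4 and the Gstt genes had adjusted p-values of 0.0797 and above.

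The mu class was divided. Gstm3 was at 6.51 in F/F tumour and 7.28 in F/F normal, and at 4.92 in +/+ tumour and 6.79 in +/+ normal, and fell by 1.32 (SE 0.29, adjusted p = 0.0459). Gstm2, its neighbour on chromosome 3, was at 7.31 in F/F tumour and 7.09 in F/F normal, and at 6.17 in +/+ tumour and 7.19 in +/+ normal. For both genes +/+ tumour was the lowest array, and for Gstm2 the other arrays lay within 0.22 of each other. Gstm1 (-0.18 in F/F, -0.43 in +/+) and Gstm4 (0.28 and 0.04) did not pass. The calls of Gstm3 and Gsto1 did not hold without the filter on level or without a variance trend, nor that of Gstm3 with the filter on mean level.

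F/F normal was set against +/+ normal to ask what the Dmt1 genotype goes with outside the tumours. Ugt2b5 was higher in F/F normal by 1.90 (3.74-fold) and Ces1g by 1.85 (3.60-fold), and these 2 were the only members at 2-fold or more, against 0.713% of all genes. F/F normal was the only array on which Ugt2b5 reached the floor, so its excess there was part of its selection, as was that of Ces1d. With the filter on mean level only Ces1g was left, where 0.550% of genes were higher. None was lower by 2-fold or more, against 0.904% of all genes. The median over kept members was 0.27, beside 0.04 over all genes, and Ces1d (0.87), Ces2a (0.85), Sult1d1 (0.79) and Sult2b1 (0.77) followed. Position markers separated the same 2 arrays: 4 of the 7 proximal markers were higher and 3 of the 6 distal markers lower in F/F normal by 2-fold or more, with Sis, a small-intestinal disaccharidase, higher by 2.10 and Hoxd13 lower with a difference of -3.84. Of 8 adipocyte markers 5 were kept, with a mean log2 signal of 7.29 in F/F normal and 5.97 in +/+ normal. The part of position and of fat in these differences was not tested.

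F/F tumour was set against +/+ tumour to ask the same within the tumours. Gstm3 was higher in F/F tumour by 1.59 (3.02-fold), Sult1a1 by 1.50 (2.83-fold), Gstm2 by 1.15 and Sult1d1 by 1.10, with Ces2a just past 2-fold, and these 5 members compare with 1.70% of all genes. None was lower by 2-fold or more, against 0.506% of all genes, and the lowest was Gsta4, an enzyme for lipid peroxidation products, at -0.78. All 5 kept sulfotransferases were higher in F/F tumour, between 0.77 and 1.50, beside a median difference of -0.02 over all genes. Ces1g (-0.35) and Ugt2b5 (-0.05), the members with the highest differences in normal colon, were not higher in F/F tumour. Both genes were below the floor on both tumour arrays, so these tumour differences rest on signals below it. Absorptive colonocyte markers also differed between these arrays. Of 10, 9 were kept and 6 of them were higher in F/F tumour by 2-fold or more, with values between 0.02 (Slc51a) and 2.46 (Aqp8). Their mean log2 signal was 9.11 in F/F tumour and 7.70 in +/+ tumour. Of 10 colon epithelium markers, some of them shared with that list, 5 were higher in F/F tumour by 2-fold or more, with a median difference of 0.99 and values between -0.04 (Epcam and Cdh1) and 2.46 (Aqp8). All 5 neutrophil markers were lower in F/F tumour by 2-fold or more, and 3 of 4 kept B cell markers were higher. The part of these cells in the differences of the members was not tested.

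**Figure D4:**
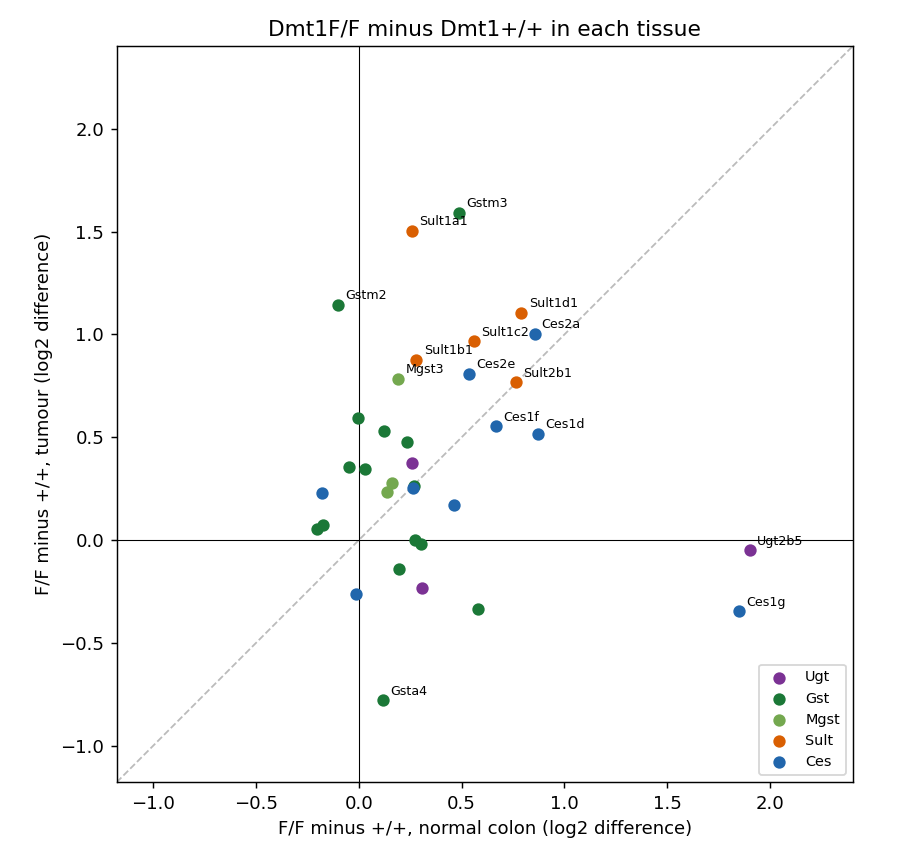
Log2 difference F/F minus +/+ of each kept member in normal colon (horizontal axis) and in tumour (vertical axis), coloured by family, with a dashed line of equality; each point rests on 4 arrays, 1 per group. Ugt2b5 and Ces1g lie far to the right near or below 0 on the tumour axis, and Gstm3, Sult1a1 and Gstm2 lie high with normal colon differences of 0.49 and less.

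Across the tissues, 20 kept members were higher in F/F in both, where 28.9% of all genes were, and 1, Ces1b, was lower in both, where 26.4% of all genes were. At 2-fold or more in both tissues, 0 members were higher and 0 lower, against 0.108% and 0.0415% of all genes. In the additive model (limma) 0 members and 0.00% of all genes passed for genotype after adjustment. At an unadjusted p under 0.05 there were 13 members, all higher in F/F, beside 8.22% of all genes in either direction. The share of all genes higher in F/F at that threshold was not counted. Ces2a had the fitted difference of 0.93 (SE 0.12, adjusted p = 0.506), Sult1d1 0.95 (SE 0.13, adjusted p = 0.506) and Sult2b1 0.77 (SE 0.13, adjusted p = 0.512), each higher in both F/F arrays. The genotype term may compare few animals, since both tissues of a genotype may share them.

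Conjugation needs activated cofactors and routes of export, and genes for these were listed apart. Of 11 kept genes of cofactor supply 6 fell in tumour and 0 rose. Beside this and the lists that follow, 8.23% of all genes fell and 11.0% rose. Ugdh, which makes UDP-glucuronic acid, the donor for every UDP-glucuronosyltransferase, was at 9.70 in F/F tumour and 11.33 in F/F normal, and at 8.90 in +/+ tumour and 10.61 in +/+ normal, and fell by 1.67 (SE 0.10, adjusted p = 0.00563). Slc35d1, which carries that donor into the endoplasmic reticulum, fell by 2.14 (SE 0.17, adjusted p = 0.00884). Slc13a1, a sulfate transporter, was at 4.08 in F/F tumour and 8.17 in F/F normal, and at 3.14 in +/+ tumour and 7.67 in +/+ normal, with an adjusted p of 0.00349, and of 0.0053 with the filter on mean level. Both tumour values of Slc13a1 were below the floor. The genes of glutathione supply in that list, Gss and Gsr, named after their values were seen, did not pass (-0.29 and 0.13).

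Of 9 kept regulators, 5 fell and 1 rose, and the 5 include Ppara, whose lower level in tumour was part of its selection. Cdx2, the homeobox factor of intestinal identity, fell by 2.33 (SE 0.16, adjusted p = 0.00715), and the lipid-sensing receptor Ppara, below the floor in both tumours and kept through normal colon alone, differed by -2.17 in F/F and -1.32 in +/+. Named outside the rule, after their values were seen, the xenobiotic receptor Nr1i2 (PXR) fell by 0.92, its partner Rxra by 1.07 and Hnf4a by 0.62, and the aryl hydrocarbon receptor Ahr rose by 0.92. Nfe2l2, also outside the naming rule, which encodes the oxidative stress factor Nrf2, differed by -0.29 (SE 0.14, adjusted p = 0.194). Among 8 kept Nrf2 targets outside the families 3 fell and 1 rose: the quinone reductase Nqo1 fell by 1.67 and Me1 by 1.60, while the cystine importer Slc7a11, below the floor in both normal arrays, rose by 3.39 (adjusted p = 0.00381, and 0.0053 with the filter on mean level).

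Of 11 kept partners in hydrolysis, oxidation, acetylation or efflux, 6 fell and 3 rose. The deacetylase Aadac fell by 1.88, the epoxide hydrolase Ephx2 by 1.34, and the exporters Abcb1a, Abcg2 and Abcc3 by 2.11, 1.84 and 1.79. The conjugate exporter Abcc2 rose by 3.36 (SE 0.30, adjusted p = 0.0109, and 0.0139 with the filter on mean level) and was at 7.35 in F/F tumour and 4.56 in F/F normal, and at 8.15 in +/+ tumour and 4.21 in +/+ normal, below the floor in both normal arrays. Abcc4 rose by 2.21 and the beta-glucuronidase Gusb, which removes glucuronic acid and was likewise named after its values were seen, by 1.15. Exporters of this list therefore lay on both sides of 0.

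**Figure D5:**
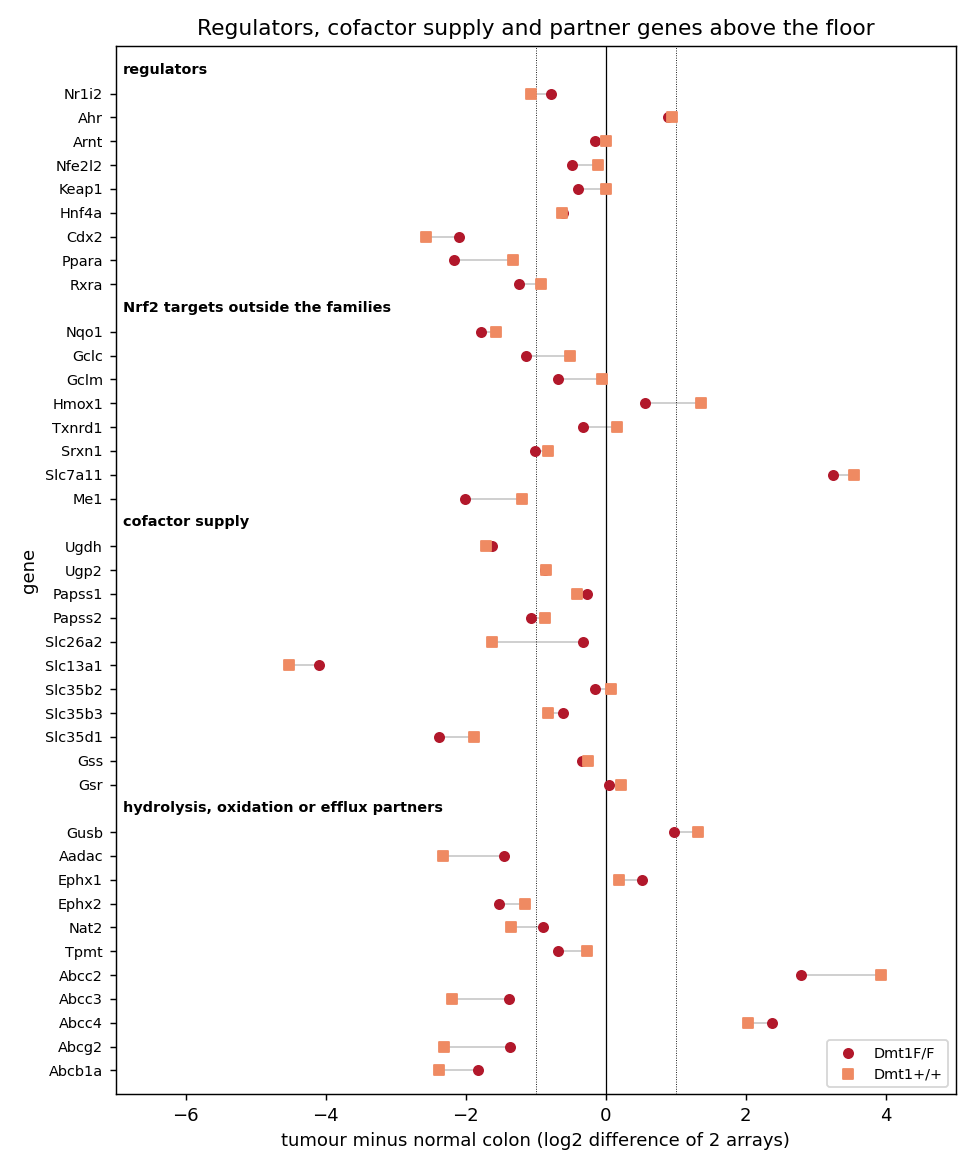
Tumour minus normal log2 difference (horizontal axis) of the kept regulators, Nrf2 targets, cofactor supply genes and partner genes (vertical axis), with 1 point for Dmt1F/F and 1 for Dmt1+/+ and dotted lines at 1 and -1. Slc13a1 lies lowest, and Slc7a11, Abcc2 and Abcc4 lie above 2 in both genotypes.

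Absorptive colonocyte markers had median tumour minus normal differences of -0.64 in F/F and -2.18 in +/+. In F/F their values ran between -3.76 (Slc51a) and -0.19 (Car4). The mean log2 signal of the 9 kept was 9.11 in F/F tumour and 10.34 in F/F normal, and 7.70 in +/+ tumour and 9.90 in +/+ normal, with 3 lower by 2-fold or more in F/F and 9 in +/+. Of the 10 colon epithelium markers, 1 was lower by 2-fold or more in F/F and 6 in +/+, with medians of -0.40 and -1.49. In that list Cdx2, Vil1 and Car1 were among the 4 that fell, while Epcam (0.02 in F/F, 0.11 in +/+) and Cdh1 (0.42 and 0.19) did not pass. Of 8 smooth muscle markers, all kept, 2 were lower by 2-fold or more in F/F and 7 in +/+. Of the 5 kept adipocyte markers, 5 were lower by 2-fold or more in F/F and 3 in +/+, and 4 fell. Of 7 fibroblast markers, all kept, 6 rose. Of 5 neutrophil markers, all kept, 3 were higher by 2-fold or more in F/F and 5 in +/+, and 2 rose. The part of these cells in the calls was not tested.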

How the data were processed

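The values are log2 signals per probe set as deposited by the authors, made with RMA in oligo, per the submitters' processing notes (versions not stated); 400 ng of RNA per array were labelled per the labels' protocols. RMA equalises the arrays' intensity distributions and gives no detection call or error. Of 41345 probe sets, 23521 named 1 gene, 1814 several and 16010 none; 23328 matched the RefSeq table of GRCm38.p6 by gene ID, and the others kept the annotation's symbol. There were 0 columns of other samples. Where a gene had several probe sets the one with the highest mean was taken. Differences of 2 arrays have no replicate check, and the number of arrays limits precision. The additive model was fitted with limma 3.58.1 in R 4.3.3 (eBayes with a trend, Benjamini-Hochberg over 12060 genes at 0.05) and checked on simulated data. Nothing states that arrays are of separate animals. Members, lists and motifs were chosen with earlier results of these data known. Every member could be named; values on all arrays are given for those at 2-fold or more in some comparison, and listed pathway genes are named at 2-fold or more in both genotypes. Alternatives changed the scaling, the filter on level, the probe set rule and the model.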

Additional observations from a re-analysis of the deposited data

Results flagged for a closer look

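Some kept members differed in opposite directions, each by at least 0.1 on the log2 scale, in the 2 genotypes or in the 2 tissues. With 1 array per group none of these contrasts between contrasts was tested, and no cause is given. For tumour minus normal, Gstm2 was at 0.22 in F/F and -1.03 in +/+, a gap of 1.25. Gsta4 was at -0.53 in F/F and 0.36 in +/+, a gap of -0.90. Ugt2b35 was at -0.19 in F/F and 0.35 in +/+, a gap of -0.54.

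For F/F minus +/+, Ces1g was at -0.35 in tumour and 1.85 in normal colon, a gap of -2.19; both tumour values, 4.17 and 4.52, were below the floor, so the sign in tumour rests on signals below it. Gstm2 was at 1.15 in tumour and -0.10 in normal colon, a gap of 1.25. Gsta3 was at -0.33 in tumour and 0.58 in normal colon, a gap of -0.91, and Gsta4 at -0.78 and 0.12, a gap of -0.90. Ugt2b35 was at -0.23 in tumour and 0.31 in normal colon, a gap of -0.54. Ces2g (0.23 in tumour, -0.18 in normal colon) had a gap of 0.41 and Gstp2 (-0.14 in tumour, 0.19 in normal colon) a gap of -0.33, both small.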

How the results depend on the processing

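The count of members that fell in tumour, 20, lay between 15 and 22 under the 9 alternatives. The count that rose, 1, became 2 with each array centred on its median, with the mean over probe sets and with tissue as the only term. Ces2g was the gene added each time. It became 0 after quantile normalization and after cyclic loess, where Gstm7 lost its call. With the filter 1 log2 unit higher Ces2g was called and Gstm7 was not. Gstp1 was called as lower with arrays centred, after quantile normalization and cyclic loess, and with the mean over probe sets. Gstt1 was called as lower with arrays centred. Why calls changed was not tested. Each member has 1 probe set, so the mean over probe sets changes only the other genes. Of members at 2-fold or more, 12 lower in F/F tumour ranged between 8 and 13, 16 lower in +/+ tumour between 12 and 17, and 5 higher in F/F tumour than +/+ tumour between 4 and 6. The 2 higher in F/F normal became 1 with the filter on mean level, chosen after seeing the data, which leaves out Ugt2b5, and stayed 2 otherwise. The genotype count stayed 0. Gstm3 and Gsto1 lost their call without the filter, without a trend and with tissue as the only term. Gstm3 lost it also with the filter on mean level. Mgst3 lost its call without a trend and with tissue alone, and Sult1b1 and Sult2b1 with tissue alone. Gstm7 lost its call with the filter 1 log2 unit higher and after quantile normalization and cyclic loess. Ugt2b5 counts among the 20 though its lower level in tumour was part of its selection, and it dropped out with the filter 1 log2 unit higher. Leaving out an array was not run, since each group has 1. No paired analysis was possible because the labels number no replicates.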

Other observations

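Probe sets annotated to several genes, including genes of these families, 8 in all, name no member and were left out of the counts. The one shared by 8 Ugt1a genes, which conjugate bilirubin and phenols, was at 4.96 in F/F tumour and 6.26 in F/F normal, and at 4.25 in +/+ tumour and 6.35 in +/+ normal. Another shared by 5 Ugt1a genes was at 4.10 in F/F tumour and 4.95 in F/F normal, and at 3.54 in +/+ tumour and 4.93 in +/+ normal. Both probe sets were lower in each tumour than in normal colon of the same genotype. Of 3 probe sets shared by alpha class glutathione S-transferases, the brightest was at 7.54 in F/F tumour and 8.89 in F/F normal, and at 6.68 in +/+ tumour and 7.95 in +/+ normal. It was lower in tumour and higher in F/F in both tissues, whereas Gsta4 differed in opposite directions between the genotypes and between the tissues. Gsta3 did so between the tissues, and its tumour minus normal difference was -0.06 in F/F and 0.85 in +/+. Another alpha class probe set differed between tumour and normal colon by -1.51 in F/F and -1.32 in +/+. The last, below the floor on every array, differed by 0.14 and -0.16. The probe set shared by 2 pi class genes differed by -0.09 between tumour and normal colon in F/F and by -0.03 in +/+. The one shared by Gstm5 and 4933431E20Rik, a gene outside these families, went the other way. It was at 6.73 in F/F tumour and 6.13 in F/F normal, and at 7.15 in +/+ tumour and 6.50 in +/+ normal. It was thus higher in tumour in both genotypes and lower in F/F in both tissues. The probe set shared by Ugt2a1 and Ugt2a2 was below the floor on every array.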
